A study of Homo sapiens with 6 samples.

Results

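The genes described here are the SR and hnRNP splicing factors and the regulators that act beside them, in MDA-MB-231 cells that carry a hairpin against brachyury or a control hairpin. They were chosen by a rule on gene symbols, with earlier results of these data known. The rule took the SR proteins named SRSF, the hnRNP genes without their pseudogenes, the related regulators TRA2A, TRA2B, PTBP1, PTBP2, PTBP3, ESRP1, ESRP2, RBFOX2, MBNL1, MBNL2, MBNL3, CELF1, QKI, SRRM1 and SRRM2, and the kinases CLK1 to CLK4, SRPK1 and SRPK2. It found 57 genes among the 54259 listed gene symbols, of which 12 were SR proteins, 24 were hnRNPs, 15 were other regulators and 6 were kinases.

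Splicing factors decide which exons of a pre-mRNA are joined. SR proteins bind exonic enhancers and recruit the spliceosome, whereas hnRNPs coat the nascent transcript and often repress nearby splice sites. The SRPK kinases phosphorylate SR proteins in the cytoplasm so that they enter the nucleus, and the CLK kinases phosphorylate them further there and release them from nuclear speckles.

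RNA-Sequence was performed on MDA-MB-231, an established breast cancer line of mesenchymal type. There were 2 groups of 3 libraries each, named shBry for the short hairpin RNA directed at brachyury and shNC for the control hairpin, and no other treatment or time is given in the labels. The labels number the 3 libraries of a group but do not say whether they came from separate cultures, so that p-values measure the spread between these libraries, which may be technical. The hairpin sequence used in this line and whether each line is a single clone are not given in the sources used here, and the deposited design text calls the RNA pericardial.

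The libraries held 19319411 to 22985371 counts each. The first principal component held 79.1% of the variance and separated the groups, and libraries within a group differed by more than sampling noise. Brachyury, listed under its older symbol T, had 0 counts in all 6 libraries, where a floor of 3 counts allows up to 0.162 CPM (counts scaled to the TMM-normalized library size) in the smallest one. The group labels therefore had no check on the gene that the hairpin targets. The study describes brachyury as constitutively overexpressed in this line, without naming RNA or protein there, and these counts did not show it in the shNC libraries either. Why it had 0 counts was not tested. Of the markers of the line, all 8 mesenchymal genes were expressed, with a summed level of 6977 to 7243 CPM in shBry and 8022 to 8372 CPM in shNC. Most of that sum was VIM (means of 3204 and 3864 CPM) and MSN (1571 and 2180 CPM), and the genes did not move together. On the log2 scale of shBry over shNC, ZEB1 (0.67) was called higher and CAV1 (-1.11) lower. CD44 and AXL had 0.34 and 0.33, and VIM, MSN, SPARC and FOSL1 had -0.27, -0.47, -0.47 and -0.03, none of them called. The leukocyte markers summed to at most 0.229 CPM and the cardiac genes MYH6 and MYH7 were at 0. The cardiac and mesothelial list of 8 genes summed to 44.9 to 50.7 CPM in shBry and 35.5 to 39.0 CPM in shNC, nearly all from the mesothelial gene MSLN (45.9 and 32.1 CPM), and CALB2 (0.81 and 4.62 CPM) was called lower. CALB2 had at most 222 counts in any library, and its shNC mean rested mostly on a single library.

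Of the 57 splicing factor genes, 52 passed the expression filter and were tested. The 5 that did not, SRSF12 and the HNRNPC-like genes HNRNPCL1, HNRNPCL2, HNRNPCL3 and HNRNPCL4, had 0 counts in every library. A gene was called at a Benjamini-Hochberg adjusted p below 0.05 in edgeR's quasi-likelihood test over all 15277 tested genes and a fold change above 1.5, which is 0.585 on the log2 scale. By this rule 12 of the 52 members (23.1%) were called, 6 higher and 6 lower in shBry. Among all tested genes 32.4% were called, 17.1% higher and 15.2% lower, so the share of called splicing factors lay below that background. SRSF4, RBFOX2, HNRNPD, TRA2B, HNRNPL and SRSF2 fell, and ESRP2, QKI, CLK1, HNRNPH3, CLK4 and CELF1 rose. In bulk RNA a lower share of cells expressing a gene and less RNA per cell cannot be told apart, and gene counts add up all transcripts of a gene, so the choice of exons was not seen.

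**Figure D1:**
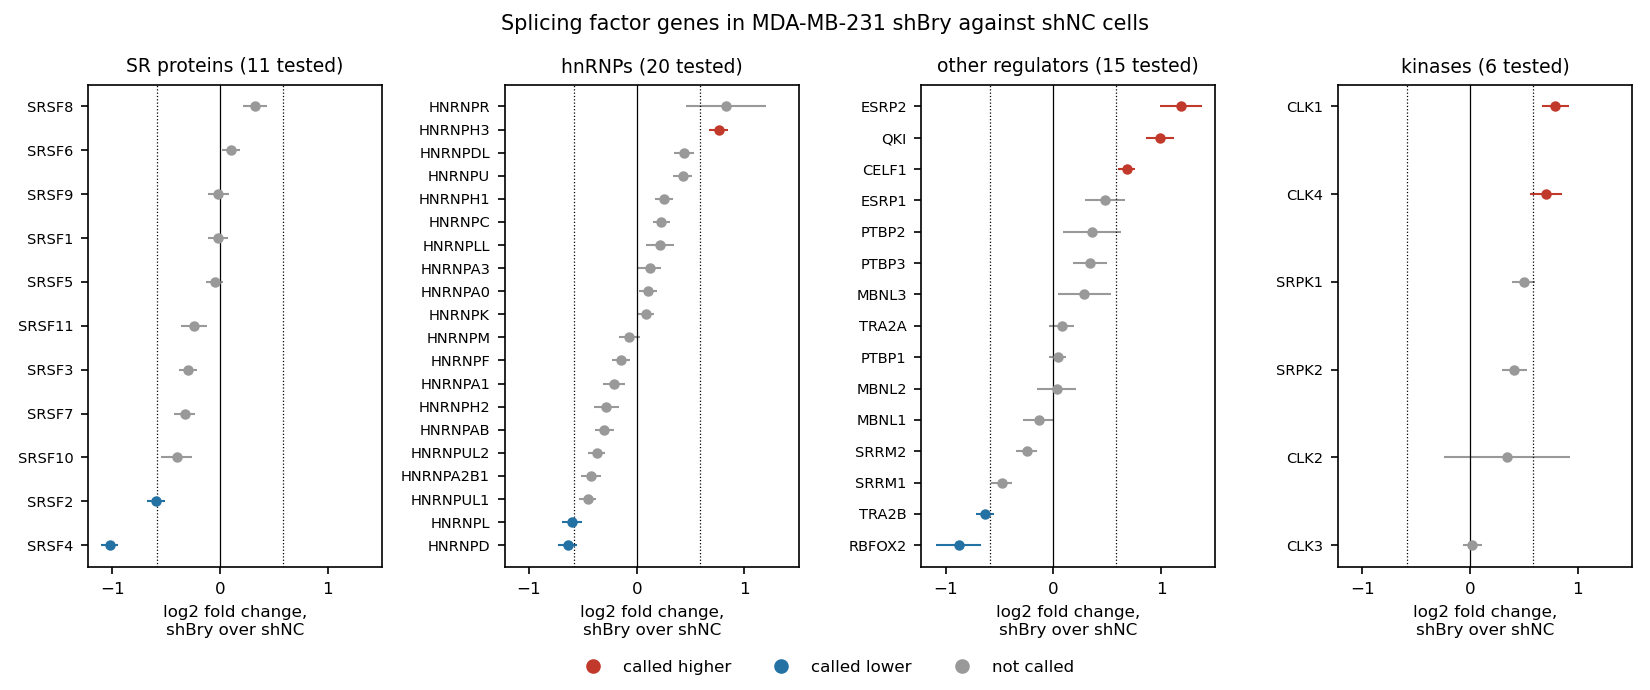
Log2 fold change of shBry over shNC (horizontal axis) for the 52 tested splicing factor genes in 4 families, where points are fitted values, bars are standard errors and dotted lines mark a fold change of 1.5. The SR panel lies mostly left of 0, with SRSF4 lowest at -1.02, and CLK1, CLK4, SRPK1 and SRPK2 lie at 0.41 to 0.79.

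The members moved in both directions by modest amounts. Their log2 fold changes ran from -1.02 for SRSF4 to 1.19 for ESRP2, with a median of 0.03, which was also the median of all tested genes. The median absolute log2 fold change was 0.34 for the members and 0.42 for all tested genes. In 29 of the 52 members (55.8%) the shBry libraries and the shNC libraries did not overlap, 14 higher and 15 lower, beside 59.5% of all tested genes.

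The called members were spread over all 4 families. Of 11 tested SR proteins 9 had a negative log2 fold change, the median was -0.24, and 2 members (18.2%) were called, both lower. Of 20 tested hnRNPs 10 were positive and 10 negative with a median of 0.01, and 3 (15%) were called, 1 higher and 2 lower. Of the 15 other regulators 10 were positive, with a median of 0.08, and 5 (33.3%) were called, 3 higher and 2 lower. The 6 kinases had a median of 0.45 and 2 of them (33.3%) were called, both higher, which is close to the 32.4% called among all tested genes. CLK1, CLK4, SRPK1 and SRPK2 were positive under every alternative, whereas CLK3 (-0.06 to 0.06) and CLK2 (-0.20 to 0.96) changed sign when single libraries were left out. SRSF1, SRSF9, HNRNPM, PTBP1 and MBNL2, which lay close to 0, did so too. These directions were described by counts and not tested as sets.

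Promoters are shown for CLK1 and CLK4, the kinases that rose, and for SRSF4 and HNRNPD, the SR protein and the hnRNP with the largest fall, because the hairpin is directed at a transcription factor. The sequences are those of RefSeq on GRCh38.p14, read 5′ to 3′ on the gene's strand, from 250 bases before to 50 bases after the start. They lie at chr2:200864609-200864908 (CLK1), chr5:178627001-178627300 (CLK4), chr1:29181851-29182150 (SRSF4) and chr4:82373942-82374241 (HNRNPD), all on the minus strand. Capitals mark matches to the CRE half-site TGACG, a motif bound by CREB and ATF factors, and to the ETS motif CCGGAAG. These 2 were picked from a longer list of searched motifs, and a link between them and the direction of change was not tested. The ETS motif was about as frequent in member promoters (10.2%) as in all promoters (10.7%). The CCAAT box was in as many member promoters as the CRE half-site, 20 of 49. No other motif is marked, although others were found, such as a TATA box in HNRNPD. The marked motifs are not those of brachyury, and none of the promoters shown held the core GGTGTG of the T-box family, to which brachyury belongs. All marked matches are on the opposite strand, so that the half-site reads CGTCA here and the ETS motif is seen in its reverse complement, CTTCCGG.
CLK1: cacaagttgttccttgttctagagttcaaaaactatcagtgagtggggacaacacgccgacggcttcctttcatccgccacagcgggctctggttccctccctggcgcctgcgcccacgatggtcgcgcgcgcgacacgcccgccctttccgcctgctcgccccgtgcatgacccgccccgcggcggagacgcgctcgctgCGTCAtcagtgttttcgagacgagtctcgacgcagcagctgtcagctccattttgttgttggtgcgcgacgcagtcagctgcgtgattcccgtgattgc
CLK4: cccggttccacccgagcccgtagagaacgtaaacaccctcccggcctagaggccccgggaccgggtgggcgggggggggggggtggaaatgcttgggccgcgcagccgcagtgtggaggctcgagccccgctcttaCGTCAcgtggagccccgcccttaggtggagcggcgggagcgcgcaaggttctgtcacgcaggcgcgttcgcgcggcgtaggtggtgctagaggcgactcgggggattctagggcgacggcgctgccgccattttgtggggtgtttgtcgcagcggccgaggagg
SRSF4: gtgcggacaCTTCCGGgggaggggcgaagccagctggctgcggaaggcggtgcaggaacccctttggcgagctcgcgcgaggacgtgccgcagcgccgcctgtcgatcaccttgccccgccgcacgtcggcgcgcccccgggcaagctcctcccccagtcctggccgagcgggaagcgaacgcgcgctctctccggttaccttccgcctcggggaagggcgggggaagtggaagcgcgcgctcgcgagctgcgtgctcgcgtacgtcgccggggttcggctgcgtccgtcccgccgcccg
HNRNPD: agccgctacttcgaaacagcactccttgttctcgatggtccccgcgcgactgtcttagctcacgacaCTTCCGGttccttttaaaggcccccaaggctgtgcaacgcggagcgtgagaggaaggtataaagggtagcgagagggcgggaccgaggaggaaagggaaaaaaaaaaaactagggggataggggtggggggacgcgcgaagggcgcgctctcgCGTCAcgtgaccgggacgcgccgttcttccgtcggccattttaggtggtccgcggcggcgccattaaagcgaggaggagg

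RefSeq promoters were matched for 49 of the 57 members. ESRP1, ESRP2, HNRNPA1, HNRNPCL3, QKI, RBFOX2, SRSF2 and TRA2A had no match. The CRE half-site, searched on both strands, was found in 20 of the 49 promoters (40.8%) and in 25.0% of all 27305 promoters of the same length. CLK1 held it 49 bases before the start, CLK4 114 bases before and HNRNPD 30 bases before, whereas SRSF4 held none. It was in 3 of the 4 matched promoters of members called higher and in 2 of the 4 called lower, and its other carriers were not called. The ETS motif was found in 5 of the 49 promoters (10.2%), beside 10.7% of all promoters. Its carriers were SRSF4 and HNRNPD, called lower, and HNRNPF, HNRNPLL and SRSF5, which were not called. The matched promoters of HNRNPL and TRA2B, also called lower, did not hold it.

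Brachyury belongs to the T-box family, whose factors bind variants of one half-site. The letters of that half-site, AGGTGTGA, were in 0 of the 49 promoters and in 0.982% of all promoters. Its shorter core GGTGTG, which lies inside the longer motif, was in 7 of 49 (14.3%) beside 16.5% of all, and the 7 were HNRNPUL1, MBNL2, MBNL3, PTBP3, SRPK2, SRRM2 and SRSF6. The full CRE TGACGTCA, which contains the half-site, was in 0 of 49 beside 1.98%, the CCAAT box CCAAT in 40.8% beside 35.7%, and the TATA box TATAAA in 10.2% beside 12.0%. The NRF1 motif GCATGCGC was in 2.04% beside 3.27%, the YY1 motif AAGATGGCG in 0 of 49 beside 1.85%, the E2F motif TTTCCCGC in 6.12% beside 1.66%, and its second form TTTGGCGC in 0 of 49 beside 0.659%. Every member promoter held a CG dinucleotide, as did 95.8% of all promoters. The promoters of the members were richer in G and C, with a median of 65.0% beside 58.3% of all promoters, and how far this sets the share of CRE half-sites was not tested.

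SRSF4 (chromosome 1, 29147743 to 29181987, minus strand), an SR protein with a long RS domain, was the splicing factor that fell most. It was measured at 53.3, 55.9 and 55.7 CPM in shBry replicates 1, 2 and 3 and at 111, 113 and 111 CPM in shNC. The libraries of each group were close together and the groups lay far apart. Its level was 55.0 ± 1.47 CPM in shBry and 111.7 ± 0.943 CPM in shNC (SD, n = 3), a log2 fold change of -1.02 with a standard error of 0.08 (edgeR, adjusted p = 1.16e-07). It was called in all 6 fits that left out 1 library.

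SRSF2 (chromosome 17, 76734115 to 76737374, minus strand), which is also known as SC35 and is mutated in myeloid neoplasms, was the other SR protein called lower. Its libraries gave 168, 151 and 182 CPM in shBry and 254, 258 and 246 CPM in shNC, without overlap. The log2 fold change was -0.60 with a standard error of 0.08 (edgeR, adjusted p = 3.95e-05). Without shBry replicate 2 it was -0.54 and was no longer called. MFSD11 and MIR636 overlap 36.7% of the SRSF2 exon bases (3.28% on the same strand), and whether reads were counted by strand is not given, so the value is uncertain.

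The other 9 tested SR proteins were not called. SRSF1 is the founding member of the family, SRSF3 and SRSF7 also act in mRNA export, and SRSF10 represses splicing when it is dephosphorylated. SRSF10, SRSF7, SRSF3 and SRSF11 had log2 fold changes of -0.40, -0.33, -0.30 and -0.24. SRSF5, SRSF1 and SRSF9 lay at -0.05, -0.02 and -0.02, and SRSF6 and SRSF8 at 0.10 and 0.32. None of them passed the fold change limit, although SRSF10, SRSF7, SRSF3 and SRSF8 had an adjusted p below 0.05. SRSF1 shares 50.8% of its 50-base stretches with a transcript that overlaps it, and 46.2% of the exon bases of SRSF9 lie under GATC on the other strand, so both are uncertain.

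SRSF9 was the most abundant SR protein per transcript length, with 232, 180.0 and 221 CPM in shBry and 215, 209 and 214 CPM in shNC. Per kilobase of transcript this was 175.6 ± 22.8 in shBry and 177 ± 2.79 in shNC (SD, n = 3), and the groups overlapped. With the length of all exon bases SRSF2 took place 1 and SRSF9 place 3, so the order depends on the length used.

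As a sum over its 12 members the SR family stood at 1336, 1257 and 1371 CPM in shBry and 1489, 1519 and 1629 CPM in shNC. The groups did not overlap, and the difference of the means was -14.5% in shBry relative to shNC (two-sided exact permutation test, p = 0.1, the smallest that 3 against 3 libraries can give, and 0.2 after adjustment over 4 families). SRSF4 made up 4.17% ± 0.25 of the sum in shBry and 7.24% ± 0.35 in shNC (SD, n = 3). SRSF2 went from 16.4% in shNC to 12.6% in shBry, while the share of SRSF6 was 8.89% in shNC and 11.2% in shBry.

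Among the hnRNPs, HNRNPD and HNRNPL fell and HNRNPH3 rose. HNRNPD (chromosome 4, 82352498 to 82374503, minus strand), known as AUF1, binds AU-rich elements and promotes decay of the mRNAs that carry them. It was measured at 186, 179 and 197 CPM in shBry and at 271, 283 and 324 CPM in shNC, without overlap. The log2 fold change was -0.64 with a standard error of 0.09 (edgeR, adjusted p = 2.44e-05).

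HNRNPL (chromosome 19, 38836388 to 38852347, minus strand) binds CA-rich sequences and regulates exons such as those of CD45. Its 3 shBry libraries held 49.7, 43.1 and 42.5 CPM and its 3 shNC libraries 70.4, 66.3 and 67.9 CPM. The groups did not overlap, but the log2 fold change of -0.60 (standard error 0.09, edgeR, adjusted p = 8.80e-05) lay just past the fold change limit. The call was lost without shBry replicate 2 (-0.58), shBry replicate 3 (-0.56) or shNC replicate 1 (-0.58).

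HNRNPH3 (chromosome 10, 68331174 to 68343191, plus strand), a shorter relative of the G-tract binding proteins HNRNPH1 and HNRNPF, was the only hnRNP called higher. It stood at 156, 142 and 157 CPM in shBry against 87.5, 83.8 and 97.1 CPM in shNC. Every shBry library lay above every shNC library, with a log2 fold change of 0.76 and a standard error of 0.09 (edgeR, adjusted p = 4.74e-06). Its share of the hnRNP sum went from 1.55% ± 0.03 in shNC to 2.69% ± 0.03 in shBry (SD, n = 3).

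The other 17 tested hnRNPs were not called. HNRNPA1 and HNRNPA2B1 are repressors that compete with SR proteins for exons, and HNRNPU, also called SAF-A, binds both RNA and chromatin. HNRNPUL1, HNRNPA2B1, HNRNPUL2 and HNRNPAB had log2 fold changes of -0.46, -0.43, -0.37 and -0.30 without overlap between the groups, and HNRNPH2 and HNRNPF -0.28 and -0.15, also without overlap. On the positive side HNRNPDL had 0.44, HNRNPU 0.43, HNRNPH1 0.25 and HNRNPC 0.23, and the groups of these 4 did not overlap either. HNRNPA1, HNRNPM, HNRNPK, HNRNPA0, HNRNPA3 and HNRNPLL lay between -0.21 and 0.21 with overlapping groups. HNRNPUL2 shares 43.2% of its 50-base stretches with the readthrough transcript HNRNPUL2-BSCL2 and HNRNPA1 22.8% with its pseudogenes, so both values are uncertain.

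HNRNPC, which binds uridine tracts and masks cryptic exons, was the most abundant hnRNP per transcript length. It stood at 968, 840.4 and 935.5 CPM in shBry and 766, 766 and 809 CPM in shNC, which is 534 ± 38.7 and 455 ± 14.2 CPM per kilobase (SD, n = 3). The groups did not overlap, and the log2 fold change was 0.23 (edgeR, adjusted p = 2.51e-02), short of the fold change limit. With the length of all exon bases HNRNPC took place 3 and HNRNPAB place 1.

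HNRNPR had the highest fitted log2 fold change of the family, 0.83 with a standard error of 0.37, but only 44 to 146 counts in the shBry libraries and 31 to 55 in the shNC libraries. Its groups overlapped and it was not called (edgeR, adjusted p = 7.40e-02). With single libraries left out its log2 fold change ran from 0.28 (without shBry replicate 3) to 1.17 (without shBry replicate 2, where it was called). It was also called without the expression filter (0.80) and by an unadjusted p, the limit as the study words it.

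The sum over the hnRNP family was 5801, 5341 and 5786 CPM in shBry and 5658, 5486 and 6128 CPM in shNC. The groups overlapped, with means of 5643 and 5757 CPM (two-sided exact permutation test, p = 0.6, adjusted 0.7).

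**Figure D2:**
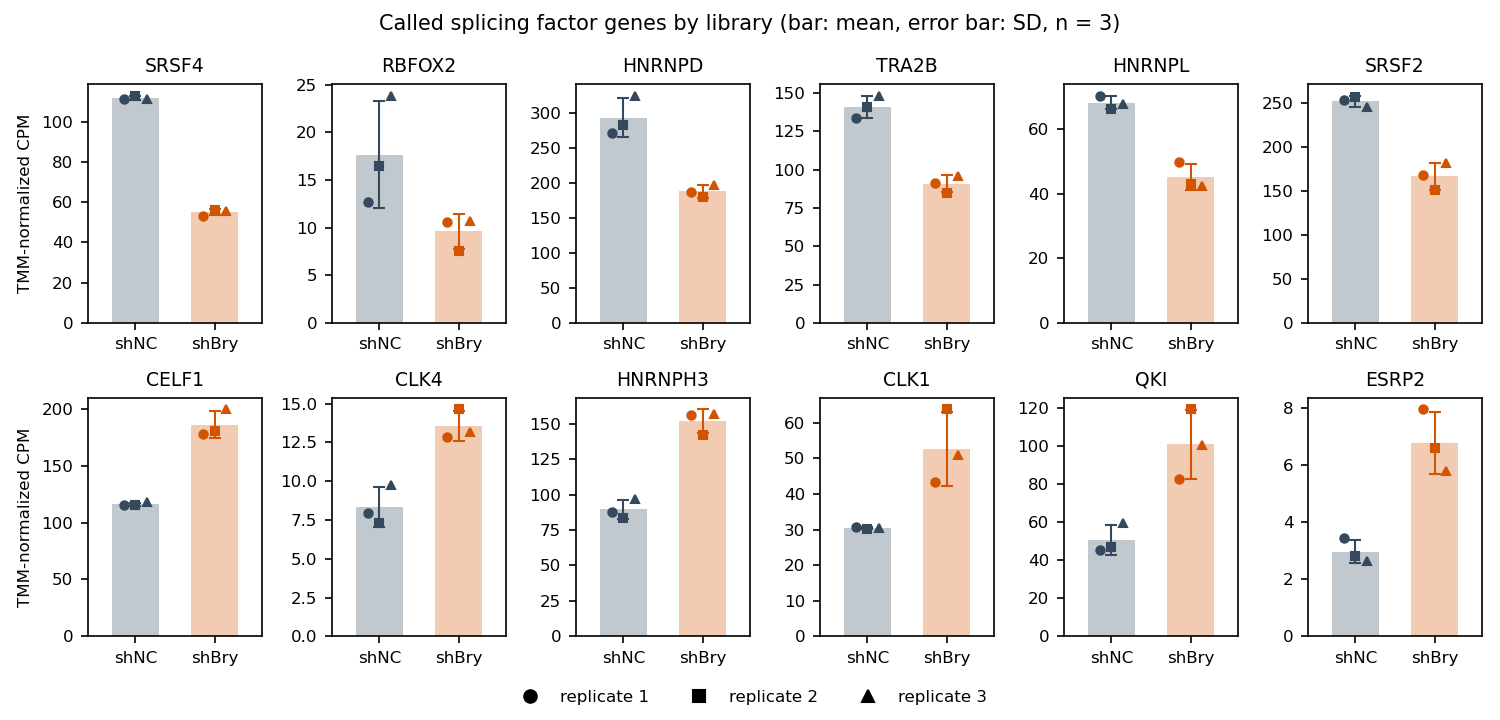
TMM-normalized CPM (vertical axes) of the 12 called splicing factor genes in each of the 3 shNC and 3 shBry libraries, with bars for means, error bars for SD and symbols for replicate numbers. In every panel the shBry points lie wholly below (top row) or wholly above (bottom row) the shNC points, as for SRSF4 at 53.3 to 55.9 against 111 to 113 CPM.

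Among the other regulators QKI, CELF1 and ESRP2 rose and TRA2B and RBFOX2 fell. QKI (chromosome 6, 163414000 to 163578596, plus strand) is a STAR family RNA-binding protein that also promotes circular RNA formation and is raised during epithelial-mesenchymal transition. It was measured at 82.8, 119 and 101 CPM in shBry and at 45.6, 47.1 and 59.9 CPM in shNC. The lowest shBry library lay above the highest shNC library, with a log2 fold change of 0.99 and a standard error of 0.13 (edgeR, adjusted p = 2.32e-05).

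CELF1 (chromosome 11, 47465933 to 47565569, minus strand), which binds GU-rich elements and opposes the MBNL proteins at many exons, stood at 178, 180.5 and 199 CPM in shBry. The shNC libraries held 115, 115 and 118 CPM. The groups were well apart, and the log2 fold change was 0.68 with a standard error of 0.08 (edgeR, adjusted p = 6.08e-06). The log2 fold changes of the 3 MBNL genes were -0.14 for MBNL1, 0.03 for MBNL2 and 0.29 for MBNL3, none was called and their groups overlapped.

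TRA2B (chromosome 3, 185915906 to 185938136, minus strand), an SR-like activator that binds GAA-rich enhancers, fell. Its shBry libraries held 91.6, 84.9 and 96.2 CPM and its shNC libraries 134, 141 and 148 CPM. No library of one group reached the other, and the log2 fold change was -0.63 with a standard error of 0.08 (edgeR, adjusted p = 2.01e-05). TRA2A, its paralog, had a log2 fold change of 0.08 and overlapping groups.

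RBFOX2 (chromosome 22, 35738736 to 36028425, minus strand), which binds GCAUG and regulates exons of cytoskeletal genes, was among the less abundant called members. It stood at 10.6, 7.503 and 10.7 CPM in shBry and 12.7, 16.5 and 23.8 CPM in shNC. The shNC libraries were widely spread, with replicate 3 far above the others. The log2 fold change was -0.88 with a standard error of 0.21 (edgeR, adjusted p = 2.64e-03), and without shNC replicate 3 it was -0.63 and was still called.

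ESRP1 and ESRP2 are regulators of epithelial exons, and both were near the lower end of the measured range. ESRP2 had 131 to 157 counts in the shBry libraries and 53 to 75 in the shNC libraries, and rose with a log2 fold change of 1.19 and a standard error of 0.19 (edgeR, adjusted p = 1.55e-04). ESRP1 had 99 to 177 counts in shBry and 84 to 99 in shNC, and its log2 fold change of 0.48 was not called. Of 10 epithelial and luminal markers 5 were tested, of which EPCAM (1.47) and CLDN7 (0.78) were called higher and CLDN3 (-0.59) and KRT19 (-1.80) lower. In shBry and shNC, EPCAM had means of 4.28 and 1.55 CPM, CLDN3 1.88 and 2.82 CPM and KRT19 0.415 and 1.46 CPM. These 3 levels are low, and CLDN3 only just passed both limits (edgeR, adjusted p = 0.0487). The summed marker level was 113 to 131 CPM in shBry and 66.7 to 84.0 CPM in shNC. Most of it was CLDN7, with means of 114.8 CPM in shBry and 66.6 CPM in shNC. CDH1 had at most 2 counts in any library and GRHL2 was at 0. The part of the epithelial markers in the ESRP2 result was not tested.

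PTBP1, a repressor that binds pyrimidine tracts, was the most abundant of the other regulators per transcript length with either length. It stood at 634, 572 and 583 CPM in shBry and 626, 566 and 549 CPM in shNC. The groups overlapped, at 189 ± 10.5 and 184 ± 12.7 CPM per kilobase (SD, n = 3), and the log2 fold change was 0.04. PTBP2 and PTBP3 had 0.36 and 0.34 and overlapping groups. SRRM1 and SRRM2, large scaffold proteins with RS domains, had -0.48 and -0.25, and neither was called. The summed level of the 15 other regulators was 1729 CPM in shBry and 1758 CPM in shNC, with overlap (two-sided exact permutation test, p = 0.7, adjusted 0.7).

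**Figure D3:**
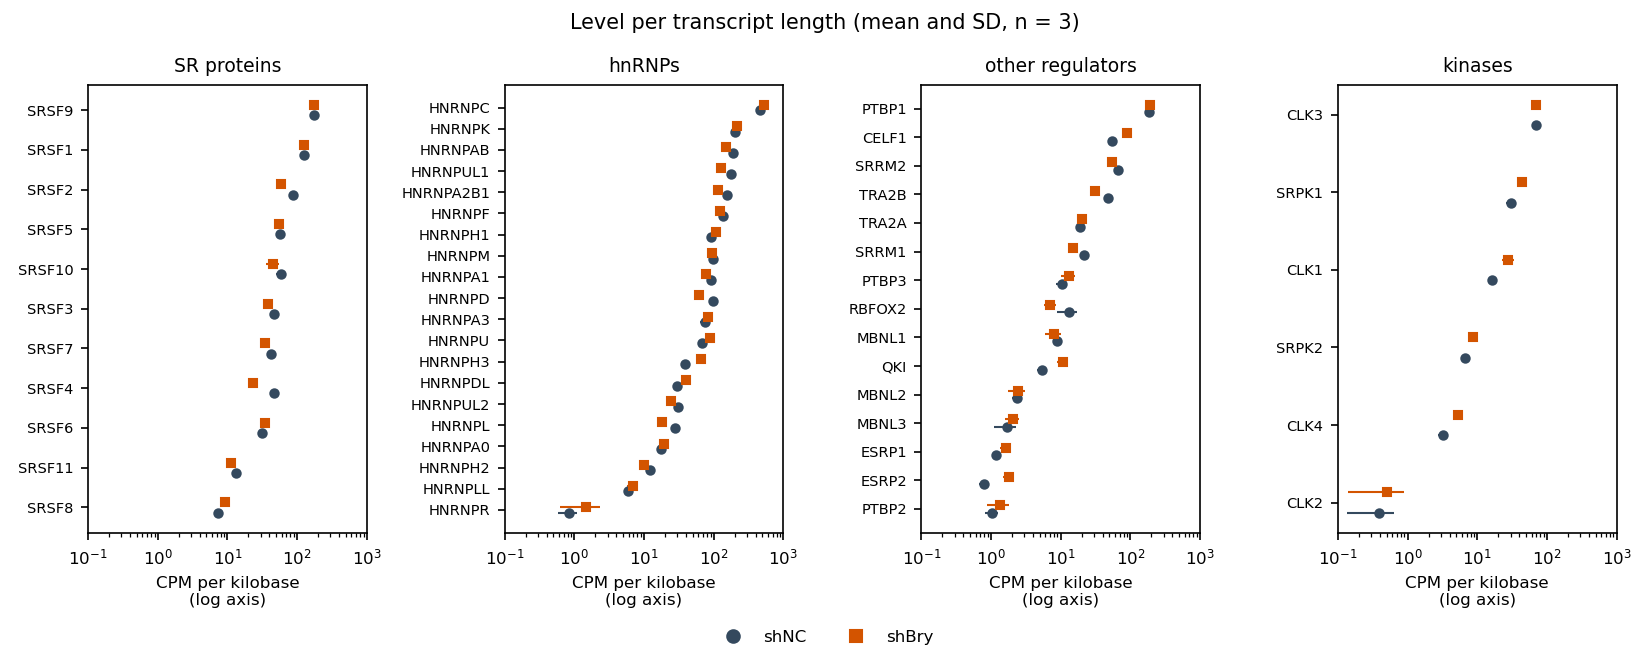
Level in CPM per kilobase of the longest principal transcript (horizontal log axis) for the 52 tested members by family, with squares for shBry means, circles for shNC means and bars for SD over 3 libraries. HNRNPC is highest at 534 and 455, and HNRNPR, PTBP2 and CLK2 are the lowest of their families by the mean of all 6 libraries, HNRNPR and CLK2 with counts whose dependence on the counting was not tested.

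Of the kinases that phosphorylate SR proteins, CLK1 and CLK4 rose. CLK1 (chromosome 2, 200853009 to 200864744, minus strand) stood at 43.4, 63.8 and 50.9 CPM in shBry and at 30.7, 30.1 and 30.5 CPM in shNC. The shNC libraries were nearly equal, the shBry libraries were spread, and the groups did not overlap. The log2 fold change was 0.79 with a standard error of 0.13 (edgeR, adjusted p = 1.09e-04), and it was 0.62 without shBry replicate 2, the highest library.

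CLK4 (chromosome 5, 178602664 to 178630615, minus strand), the closest relative of CLK1, was less abundant. It held 12.9, 14.6 and 13.2 CPM in shBry and 7.93, 7.28 and 9.77 CPM in shNC. The groups did not overlap, with a log2 fold change of 0.71 and a standard error of 0.15 (edgeR, adjusted p = 1.13e-03).

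SRPK1 is the main cytoplasmic SR protein kinase. It was measured at 186, 221 and 188 CPM in shBry and 121, 135 and 165 CPM in shNC. Its groups did not overlap, but the log2 fold change of 0.50 (standard error 0.11, edgeR, adjusted p = 1.58e-03) was short of the fold change limit, and it was called without shNC replicate 3 (0.61). SRPK2 stood at 35.05, 33.0 and 28.8 CPM in shBry and 23.5, 22.7 and 26.6 CPM in shNC. It was also without overlap and not called, with a log2 fold change of 0.41 and a standard error of 0.12 (edgeR, adjusted p = 8.19e-03).

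CLK3, the most abundant kinase per transcript length, gave 144, 119 and 125 CPM in shBry and 128, 130.2 and 123 CPM in shNC. The groups overlapped, with a log2 fold change of 0.02 and a standard error of 0.09 (edgeR, adjusted p = 0.84), which was negative without shBry replicate 1 (-0.06) and without shNC replicate 3 (-0.03). With the length of all exon bases CLK3 took place 3 and SRPK1 place 1. CLK2 had 30, 5 and 25 counts in shBry and 7, 27 and 13 in shNC, too few to place it, and its log2 fold change of 0.35 had a standard error of 0.59 (edgeR, adjusted p = 0.643) and was -0.20 without shBry replicate 1.

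The 6 kinases summed to 423, 452 and 407 CPM in shBry and 312, 327 and 356 CPM in shNC. The lowest shBry sum lay above the highest shNC sum, and the mean was 28.9% higher in shBry (two-sided exact permutation test, p = 0.1, adjusted 0.2). SRPK1 alone made up 46.4% of the sum in shBry and 42.2% in shNC, and CLK3 30.4% and 38.5%.

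Whether close relatives moved apart was read from the log2 ratio of the 2 genes within each library, with 0.5 CPM added to each. Of 21 listed pairs 20 could be tested, since SRSF12 had no counts. In 9 of the 20 the 3 shBry ratios did not overlap the 3 shNC ratios. Of all tested genes taken singly, 59.5% did not overlap, and no share was computed for pairs of unrelated genes. Each of the 9 had p = 0.1 in a two-sided exact permutation test, and 0.222 after adjustment over the 20 pairs. The p of 0.1 is the smallest possible with 3 against 3 libraries, so no pair could have reached 0.05. Whether relatives moved apart is therefore not decided by this test.

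SRSF4 and SRSF6, which are close in sequence, had the largest difference. Their log2 ratio was -1.41 ± 0.03 in shBry and -0.30 ± 0.12 in shNC (SD, n = 3), a difference of -1.12. HNRNPD and its relative HNRNPDL, which lie near each other on chromosome 4 on the same strand (HNRNPDL from 82422564 to 82430408), had a log2 ratio of 0.18 ± 0.06 in shBry and 1.26 ± 0.04 in shNC. In normalized counts HNRNPD exceeded HNRNPDL by 2.40 times in shNC and by 1.14 times in shBry, since HNRNPDL had a log2 fold change of 0.44 while HNRNPD fell.

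SRSF2 against SRSF8, which arose as a retrocopy of SRSF2, went from a log2 ratio of 3.06 ± 0.03 in shNC to 2.15 ± 0.05 in shBry. HNRNPL against HNRNPLL went from 1.45 ± 0.13 to 0.66 ± 0.35, with a wide spread in shBry. TRA2A against TRA2B moved the other way, from -1.99 ± 0.12 to -1.28 ± 0.03, and ESRP1 against ESRP2 went from 0.52 ± 0.23 to -0.12 ± 0.37 (SD, n = 3 for each). The other pairs without overlap were HNRNPH1 against HNRNPH2 (0.53), MBNL1 against MBNL3 (-0.44) and HNRNPF against HNRNPH1 (-0.40), given as differences of shBry minus shNC.

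In the other 11 pairs the libraries of the groups overlapped. CLK1 against CLK4, both called higher, differed by 0.08 between the groups, and SRPK1 against SRPK2 by 0.10. SRSF1 against SRSF9 differed by 0.01 and SRSF3 against SRSF7 by 0.04, all with overlapping libraries.

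**Figure D4:**
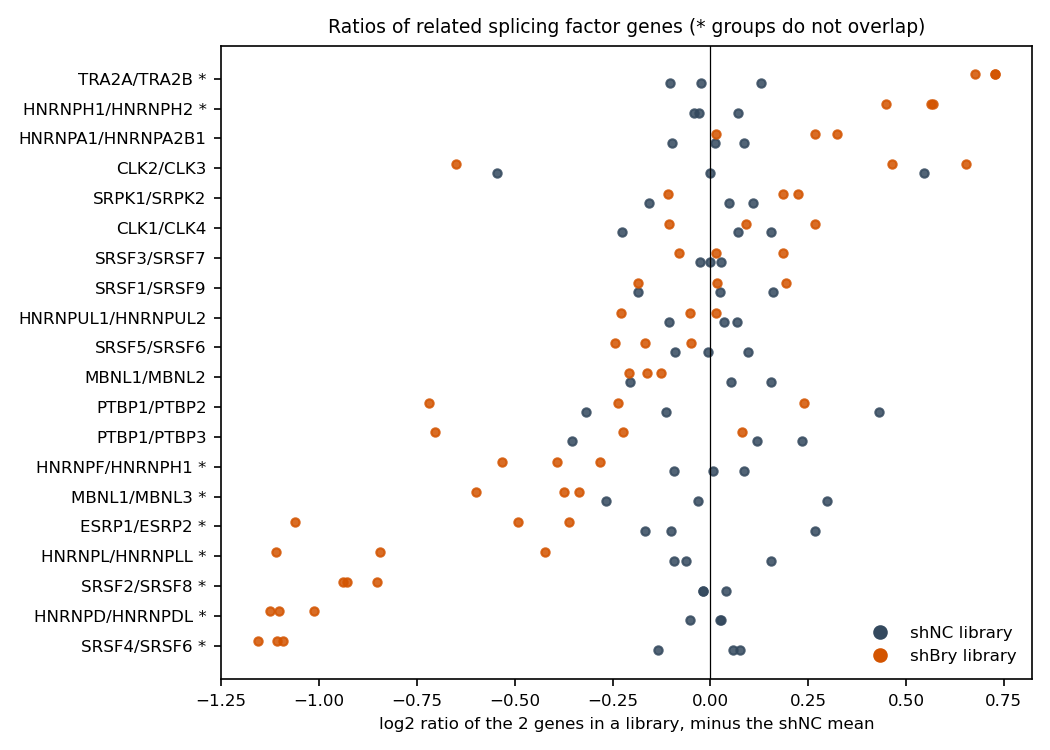
Log2 ratio of 2 related splicing factor genes within each library, minus the mean of the shNC libraries (horizontal axis), for 20 pairs, with 1 point per library and an asterisk where the groups do not overlap. The shBry points of SRSF4/SRSF6 and HNRNPD/HNRNPDL lie on average 1.12 and 1.08 to the left of the shNC points, and those of TRA2A/TRA2B lie 0.71 to the right.

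The regulators act on the core spliceosome, the snRNPs and helicases that carry out the reaction. Of 95 listed core genes, LSM2, DHX16 and DDX39B, all on chromosome 6, had 0 counts in every library, and 92 were tested. The annotation used for counting is not given and its part in these 0 counts was not tested, so they are not read as absence of expression. In this list 26 genes (28.3%) were called, 5 higher and 21 lower, beside the 32.4% called among all tested genes (17.1% higher and 15.2% lower). The median log2 fold change was -0.23, beside 0.03 for the splicing factor members and for all tested genes, and 65 genes were negative and 27 positive.

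The falls were spread over several subcomplexes. Of the 16 genes of the U4/U6.U5 tri-snRNP 14 were negative, the median was -0.44 and 5 were called lower. PRPF8, 1 of the 14, held 207, 39 and 41 counts in shBry and 63, 310 and 75 in shNC. Its groups overlapped, and its log2 fold change of -0.58 had a standard error of 0.65, so its direction is uncertain. EFTUD2, the GTPase of the U5 snRNP, stood at 263, 235 and 240.3 CPM in shBry and 534, 502 and 510.2 CPM in shNC, a log2 fold change of -1.07 (edgeR, adjusted p = 6.71e-08). The helicase DDX23 had a log2 fold change of -1.19, the U5 protein CD2BP2 -1.02, the U1-associated protein LUC7L3 -0.98 and SNRNP25 of the minor spliceosome -1.26, and the groups of each did not overlap. U2AF1 and PRPF31, also called lower, had few counts. U2AF1 held 20, 20 and 16 counts in shBry and 41, 21 and 138 in shNC, so that its groups overlapped in CPM (up to 1.08 in shBry and down to 0.993 in shNC) and its shNC mean rested mostly on replicate 3. PRPF31 held 6 to 10 counts in shBry and 15 to 18 in shNC.

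The 5 core genes called higher were PLRG1 (1.19), RBM22 (0.95) and BCAS2 (0.64) of the Prp19 complex and its partners, MAGOHB (0.93) of the exon junction complex and the second-step factor SLU7 (0.74). PLRG1 held 92.9, 89.1 and 90.7 CPM in shBry and 40.8, 38.2 and 40.2 CPM in shNC. The groups of BCAS2 overlapped, and its call was lost without shBry replicate 2, shNC replicate 1 or shNC replicate 2.

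**Figure D5:**
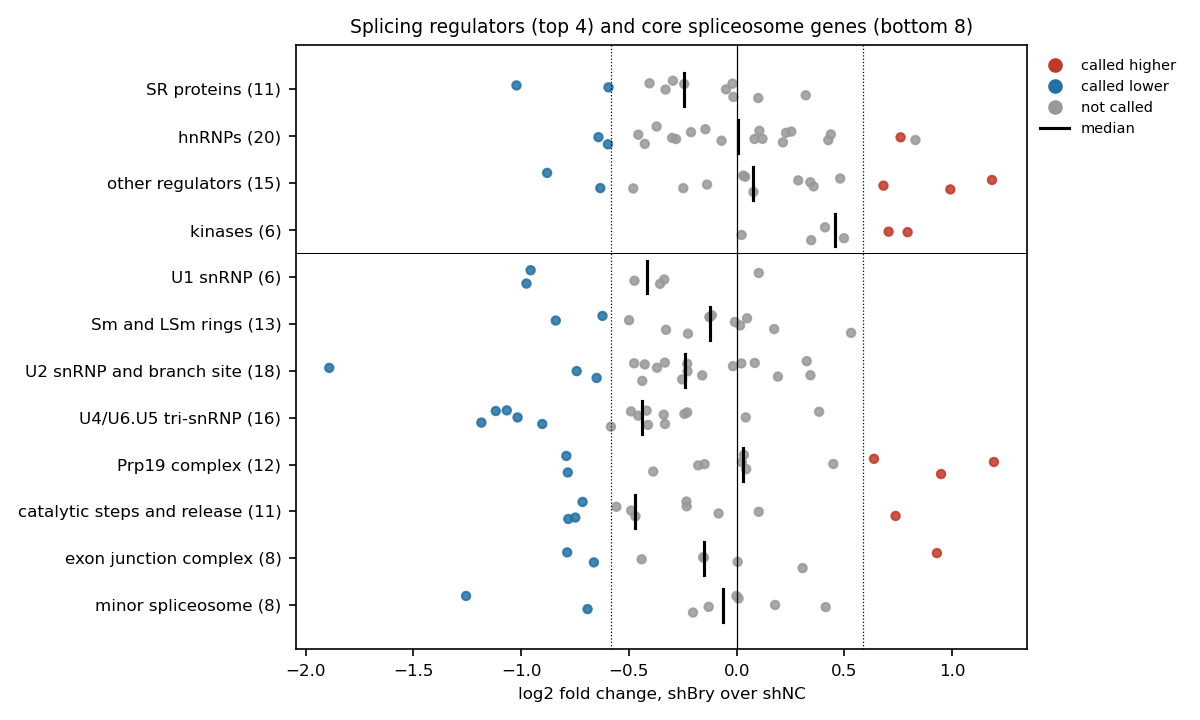
Log2 fold change of shBry over shNC (horizontal axis) for the 52 tested splicing factor members in 4 families (top) and 92 tested core spliceosome genes in 8 subcomplexes (bottom), with 1 point per gene, black bars for medians and dotted lines at a fold change of 1.5. Called lower genes outnumber called higher genes in the core list, 21 to 5, whereas the members had 6 of each.

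Single libraries touched many of these values. shBry replicate 2 deviated most widely from its group, with an SD of 0.25 on the log2 scale over the tested members beside 0.12 to 0.16 in the other libraries. Without it 11 members were called, with SRSF2 and HNRNPL lost and HNRNPR gained. shNC replicate 3 had the highest level of the 3 shNC libraries for 38 of the 52 tested members, with a median deviation of 0.12 on the log2 scale from the shNC mean. Without it 13 members were called, the 12 and SRPK1. Why these libraries stood apart was not tested.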

How the data were processed

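RNA of 3 shBry and 3 shNC libraries of MDA-MB-231 cells was sequenced on an Illumina instrument. The authors deposited unnormalized counts per gene symbol and library. The submitters' processing notes name HISAT2 2.0.4, HTSeq and GRCh38, while the settings, the annotation and the strand of counting are not given in the sources used here. Reads shared by overlapping genes or by near-identical copies could therefore have been lost or counted on either gene.

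The deposited counts were filtered with edgeR's filterByExpr at a minimum count of 10, scaled with TMM and compared in R 4.3.3 with edgeR 4.0.16 (quasi-likelihood test) on all 15277 genes that passed, with all 6 libraries and no covariate. Calls needed a fold change above 1.5 and p below 0.05 after Benjamini-Hochberg adjustment. The standard errors are not reported by that test. They were computed as the absolute log2 fold change divided by the square root of its F statistic, and are approximate. The study words its limit as p without naming a test or an adjustment. CPM are TMM-normalized and log2 fold changes are shBry over shNC. The libraries held 19319411 to 22985371 counts, and intervals from these counts would cover counting error only. Libraries within a group differed by more than that, so levels are given with the SD over libraries. Summed levels and ratios of relatives were compared by two-sided exact permutation tests over the libraries. The fitting step was tested on simulated data first.

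The members and lists were chosen with earlier results of these data known. Values by library were given for called members with a mean of at least 10 CPM, for the 6 kinases, and for the most abundant SR, hnRNP and other regulator per length. ESRP2, ESRP1, HNRNPR, U2AF1, PRPF8 and PRPF31, which fall outside that rule, were named after their values were seen. Of the core spliceosome, called genes of at least 10 CPM were named, 5 that rose and 5 that fell by the most, and of the pairs the 6 largest differences without overlap, with the rest given by value only.

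Coordinates, lengths (the longest principal transcript), exon overlap and shared 50-base stretches came from GENCODE 29 on GRCh38, matched by symbol. Promoters came from RefSeq on GRCh38.p14. The same-number check of the replicates is given with the alternatives, which were library sizes without TMM, DESeq2 1.42.0, limma-voom (limma 3.58.1), no limit or a limit of 2 on the fold change, p without adjustment, no expression filter, a stricter filter (10 counts in each library), leaving out each library, blocking on the replicate number, a prior of 1 CPM for ratios and sums per transcript length. Leaving out members that share over 20% of their bases and ranking by all exon bases were added after seeing the data. ChIP-seq data were not analysed here.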

Additional observations from a re-analysis of the deposited data

How the results depend on the processing

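The number of called members depended on the fold change limit. With a limit of 2 there were 2 calls, 1 higher (ESRP2) and 1 lower (SRSF4), and with no limit 30, of which 14 were higher and 16 lower. In the core spliceosome list the same limits gave 7 calls (1 higher, 6 lower) and 55 calls (11 higher, 44 lower). Under library sizes without TMM, DESeq2 and limma-voom every tested member kept its side of the threshold. With each library left out, 11 to 13 members were called, 6 to 7 higher and 4 to 6 lower, and 10 of the 12 calls were made in all 6 fits, HNRNPL and SRSF2 being the exceptions. Without members that share over 20% of their bases, an alternative added after seeing the data, 11 of 47 were called, 6 higher and 5 lower.

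Same-number correlations of deviations from the group means were 0.25, -0.13 and -0.05, and shBry replicate 2 correlated best with shNC replicate 3 (0.31). Deviations from means of 3 libraries depend on one another, so these values cannot decide whether the replicate numbers pair the libraries. With the replicate block 13 members were called, 7 higher and 6 lower, the added one being HNRNPR (0.74), and 26 core spliceosome genes. The family sums and the 20 pair differences moved by less than 1 SD between libraries under each alternative tried for them. The hnRNP sum, not past a threshold, changed sign without shBry replicate 2 (0.01) and without shNC replicate 3 (0.02), and the sum of other regulators did so per transcript length (0.03) and without shBry replicate 3 (0.01). Precision is limited for CLK2, with 5 to 30 counts, and HNRNPR, with 31 to 146. The annotation and strand of counting are not given, and their part in these low counts was not tested.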
